A study of Mus musculus with 21 samples.

Results

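The inhibitory checkpoint receptors described here are 7 genes chosen by name: Pdcd1, Havcr2, Lag3, Tigit, Ctla4, Cd160 and Cd244. All 7 were among the 13202 genes of the deposited expression table, and all 7 passed the filter on low values that left 12630 genes for testing. Their RNA was measured in 21 libraries of poly(A) RNA from mouse CD8 T cell cultures, in 7 groups of 3 libraries. All cells had a first stimulation of 48 h in medium with interleukin 2, which was kept at 10 ng/mL, and were harvested on day 8. Chronic groups met their antigen signal again every 48 h, and acute groups did not.

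The groups came from 3 experiments. In the first, polyclonal CD8 T cells of C57BL/6 mice were kept without (polyclonal acute) or with (polyclonal chronic) repeated plate-bound anti-CD3, an antibody that triggers the T cell receptor (TCR). In the second, T cells of OT-I TCR transgenic mice, whose receptor recognises the ovalbumin peptide SIINFEKL, were cultured with B16-F10 mouse melanoma cells. Those tumour cells had been treated with interferon gamma at 1 ng/mL, and the peptide was left out (OT-I acute) or added (OT-I chronic), so both OT-I groups held tumour cells. In the third, C57BL/6 cells were stimulated as in the first experiment with a vehicle (vehicle acute and vehicle chronic), and a further chronic group was given the antioxidant N-acetylcysteine (NAC) at 10 mM from the end of the first 48 h (NAC chronic). No acute group received NAC, and the labels state no difference between the polyclonal and vehicle cultures other than the vehicle.

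Checkpoint receptors are surface proteins that T cells gain after activation and that dampen signals from the TCR and from costimulation once a ligand is bound. Brief stimulation brings them up for a short time, whereas T cells that meet antigen without end, in chronic infection or in tumours, keep several of them at once, a state called exhaustion. Pdcd1 encodes PD-1, whose tail recruits phosphatases, Ctla4 encodes a receptor that takes the ligands CD80 and CD86 from CD28, Lag3 binds major histocompatibility complex class II, and Tigit competes with the activating receptor CD226 for the poliovirus receptor. Havcr2 encodes TIM-3, a marker of late exhaustion, Cd160 a receptor for HVEM that natural killer (NK) and intraepithelial T cells also carry, and Cd244 encodes 2B4, a receptor for CD48 that can inhibit or activate.

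Values are in RPKM, reads per kilobase of gene scaled to the reads of the library, so levels of different genes can be compared per length. Changes are differences of group means of log2(RPKM + 1) from limma, with their standard error (SE), a scale that understates the change of low genes. A gene was called where its p, adjusted over the 12630 genes by the Benjamini-Hochberg method, was under 0.05. Libraries held 5347355 to 25218890 reads in genes, and the receptors were covered by 19 to 12573 reads per library. The labels do not say that libraries of a group came from separate cultures or animals, so a p-value reflects the spread among the sequenced samples alone, part of which may be technical. Strandedness is not stated in the labels, and reads of a receptor gene and of an antisense or overlapping gene cannot be told apart.

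The cell type named by the labels was checked against its markers. Cd8a, a chain of the CD8 coreceptor, lay at 87.1 to 145 RPKM in 6 groups and at 8.48 RPKM in polyclonal chronic libraries, where Cd4 was at 312 RPKM against 67.5 in polyclonal acute. In the polyclonal chronic libraries the B cell marker sum also stood at 208 to 230 RPKM, against 3.45 to 15.1 in polyclonal acute, and all 7 B cell markers were called higher. OT-I libraries held melanocyte markers from the tumour cells, with sums of 7720 to 8020 RPKM in acute and 4570 to 4690 in chronic libraries, and their B cell marker sum went from 5.12 to 11.8 RPKM up to 39.7 to 42.9. Melanocyte sums were also 33.3 to 74.5 RPKM in polyclonal acute and 49.5 to 68.5 in polyclonal chronic libraries, though tumour cells are described for the OT-I cultures alone. The source of this RNA was not tested. In the vehicle and NAC libraries melanocyte sums were at most 11.2 RPKM. B cell marker sums there were 4.87 to 6.32 RPKM in vehicle acute, 3.58 to 4.87 in vehicle chronic and 10.3 to 11.7 in NAC chronic libraries. The part of these other cells in the receptor values was not tested. In such bulk RNA, fewer cells of a type and less RNA per cell cannot be told apart.

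Upstream sequences are shown for 4 receptors, because Havcr2 and Cd244 had the largest falls under NAC and Pdcd1 and Tigit smaller ones. They are the 250 bases before each gene's start in RefSeq on GRCm38.p6, 5′ to 3′ on the gene's strand, and capitals mark a match to the AP-1 motif TGANTCA. AP-1 dimers of JUN, FOS and BATF proteins are activated by TCR signalling. The windows are chr11:46454681-46454930 (plus strand) for Havcr2, chr1:171558943-171559192 (plus strand) for Cd244, chr1:94052554-94052803 (minus strand) for Pdcd1 and chr16:43664185-43664434 (minus strand) for Tigit.
Havcr2: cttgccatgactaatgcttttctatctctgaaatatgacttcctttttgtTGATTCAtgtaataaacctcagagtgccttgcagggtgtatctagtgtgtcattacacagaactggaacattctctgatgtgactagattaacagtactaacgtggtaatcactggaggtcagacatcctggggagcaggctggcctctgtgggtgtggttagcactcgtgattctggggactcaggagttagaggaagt
Cd244: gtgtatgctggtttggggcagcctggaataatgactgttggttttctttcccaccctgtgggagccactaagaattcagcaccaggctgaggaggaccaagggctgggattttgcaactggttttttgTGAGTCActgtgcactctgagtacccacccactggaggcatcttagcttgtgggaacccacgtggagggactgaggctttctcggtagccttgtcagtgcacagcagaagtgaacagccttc
Pdcd1: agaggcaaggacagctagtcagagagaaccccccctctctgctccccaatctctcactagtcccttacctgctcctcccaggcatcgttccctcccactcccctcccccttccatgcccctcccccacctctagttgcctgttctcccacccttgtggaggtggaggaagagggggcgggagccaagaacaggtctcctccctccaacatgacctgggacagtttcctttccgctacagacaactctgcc
Tigit: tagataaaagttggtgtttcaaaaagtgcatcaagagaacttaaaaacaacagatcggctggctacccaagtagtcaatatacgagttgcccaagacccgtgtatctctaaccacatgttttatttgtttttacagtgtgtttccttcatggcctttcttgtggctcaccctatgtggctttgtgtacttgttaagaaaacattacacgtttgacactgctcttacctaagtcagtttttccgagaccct

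On both strands, TGANTCA was found in 2 of the 7 start sites that the RefSeq table holds for 6 of the receptors, against 6.75% of 32851 promoter windows of the same length. The match lay at -200 to -194 from the start in Havcr2 and at -122 to -116 in Cd244. GGAAA, the core bound by NFAT factors, was in 5 of the 7 sites and in 55.6% of all windows, and the Pdcd1 window held it at -28 to -24 and at -23 to -19. CACGTG was in 1 of the 7 (Cd244, 6.02% of all windows), TGACNNNGC, the core of the antioxidant response element, in 2 of the 7 (Tigit and Cd244, 10.2%), and AAAGGTCA, bound by NR4A factors, in 0 of the 7 (1.34%). The search was chosen after the values were seen, and a match describes these letters only. No binding was measured.

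**Figure D1:**
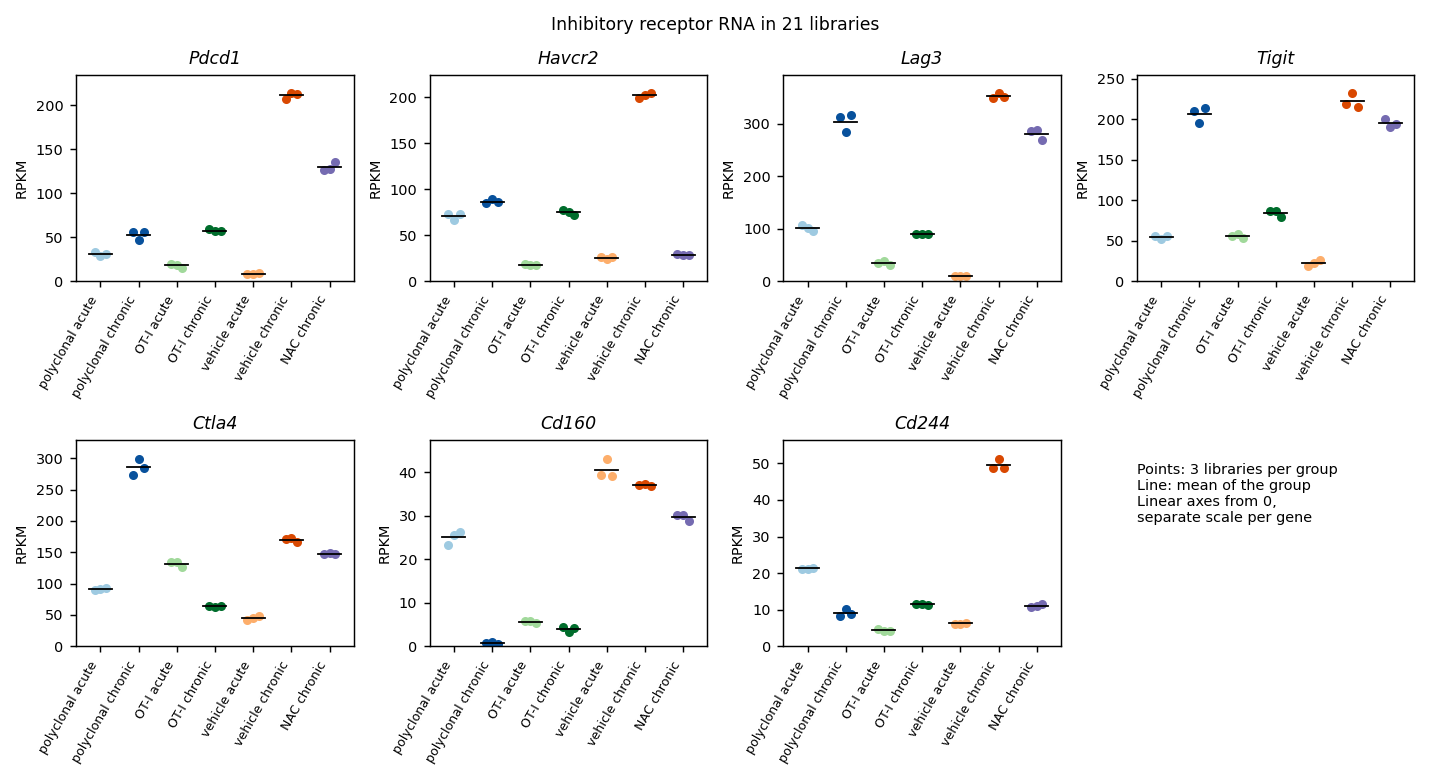
Level of each receptor's RNA in RPKM (linear axes from 0, 1 scale per gene) in 21 libraries, as points for the 3 libraries of each of 7 groups and lines for their means. Pdcd1, Havcr2 and Cd244 stand highest in vehicle chronic libraries, Ctla4 in polyclonal chronic libraries, and Cd160 in vehicle acute libraries.

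Chronic stimulation was compared with acute stimulation in the polyclonal, OT-I and vehicle experiments, to ask which receptors rose with repeated antigen signal and by how much. Pdcd1, Havcr2, Lag3 and Tigit rose in each of the 3 experiments. Ctla4 rose in the polyclonal and vehicle experiments and fell in the OT-I experiment, Cd244 rose in the OT-I and vehicle experiments and fell in the polyclonal one, and Cd160 rose in none. In the polyclonal experiment 5 of 7 receptors were called higher and 2 lower, where 64.1% of all genes were called (28.6% higher and 35.5% lower). The OT-I experiment also had 5 higher and 2 lower, with 58.6% of all genes called (22.4% higher and 36.2% lower). In the vehicle experiment 6 were higher and Cd160 was not called, with 58.9% of all genes called (24.5% higher and 34.4% lower). The median log2 change of the receptors was 0.74 in polyclonal, 1.22 in OT-I and 2.96 in vehicle cells, beside -0.08, -0.12 and -0.03 over all genes tested. Acute and chronic libraries of an experiment did not overlap for any of the 7 receptors, as for 59.6% of all genes in polyclonal, 65.1% in OT-I and 73.1% in vehicle cells.

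The calls were repeated on other scales. Rescaling all libraries to a common median of log2(RPKM + 1) left every receptor call of these 3 comparisons in place. Rescaling them to a common level of Cd3e, Cd3d and Cd3g, the TCR complex genes of all T cells, moved the median change of all genes to 0.44 in polyclonal, 0.29 in OT-I and -0.52 in vehicle cells. Of the called genes, 44.6% were higher in polyclonal, 38.2% in OT-I and 41.6% in vehicle cells on RPKM as deposited, 48.2%, 49.8% and 44.2% with a common median, and 87.0%, 87.8% and 10.3% with common Cd3 RNA. On the Cd3 scale the receptors that rose or fell kept their direction, the OT-I change of Cd160 was no longer called (log2 change -0.01, adjusted p = 0.948), and the vehicle change of Cd160 was called lower (log2 change -0.61, adjusted p = 1.72e-05).

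Pdcd1, the gene of PD-1, was at 33.1, 28.9 and 30.9 RPKM in the polyclonal acute libraries and at 55.3, 47.3 and 55.3 RPKM in the polyclonal chronic ones (log2 change 0.74, SE 0.076, adjusted p = 3.18e-08). In OT-I cells it was at 19.3, 18.8 and 15.2 RPKM after acute and at 58.8, 56.6 and 56.5 RPKM after chronic culture (log2 change 1.64, SE 0.076, adjusted p = 5.25e-13). Vehicle acute libraries held 7.66, 8.0 and 8.88 RPKM and vehicle chronic libraries 207, 214 and 213 RPKM (log2 change 4.53, SE 0.076, adjusted p = 1.09e-20). Every chronic library was thus above every acute library of its experiment, and the ratio of means was 1.70 in polyclonal, 3.23 in OT-I and 25.8 in vehicle cells. The vehicle rise exceeded the polyclonal one by 3.79 on the log2 scale (SE 0.107, adjusted p = 1.3e-16), and the OT-I rise exceeded the polyclonal one by 0.90 (SE 0.107, adjusted p = 5.19e-07). On RPKM as deposited, vehicle acute cells had the lowest Pdcd1 RNA of the 7 groups and vehicle chronic cells the highest. No 2 groups next to each other in that order overlapped, and the share of all genes with such an order was not counted.

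Lag3 had the largest rise of the 7 in the vehicle experiment. It went from 8.72, 9.34 and 8.76 RPKM in vehicle acute to 349.6, 358 and 352 RPKM in vehicle chronic libraries (log2 change 5.16, SE 0.064, adjusted p = 1.32e-22), a ratio of 39.5. In polyclonal cells it was at 106, 102 and 95.4 RPKM after acute and 312, 284 and 316 RPKM after chronic culture (log2 change 1.58, SE 0.064, adjusted p = 1.34e-14). OT-I cells had 34.3, 38.3 and 30.4 RPKM in acute and 88.7, 90.2 and 90.4 RPKM in chronic libraries (log2 change 1.37, SE 0.064, adjusted p = 6.44e-13). Among chronic cells Lag3 was the most abundant receptor RNA per length in all 4 groups, from 23.3% of the summed RPKM of the 7 receptors in OT-I to 34.1% under NAC. The OT-I and polyclonal rises of Lag3 differed by -0.21 on the log2 scale, which missed the threshold (SE 0.090, adjusted p = 0.0544). Of 21 alternatives, 8 called this difference, with values of -0.35 to -0.20, among them the fit with the replicate number as a block (-0.21, adjusted p = 0.0427) and those without polyclonal acute library 1 (adjusted p = 0.034), polyclonal chronic library 2 (adjusted p = 0.0206) or OT-I acute library 3 (adjusted p = 0.00262). The vehicle rise was larger than the polyclonal one by 3.58 (SE 0.090, adjusted p = 2.76e-17).

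Tigit rose in polyclonal cells, from 55.9, 51.7 and 56.3 RPKM in acute to 211, 196 and 214 RPKM in chronic libraries (log2 change 1.90, SE 0.079, adjusted p = 2.2e-14), which was the largest rise of the 7 there. In OT-I cells it went from 55.4, 58.5 and 53.5 RPKM to 87.1, 87.0 and 78.9 RPKM (log2 change 0.59, SE 0.079, adjusted p = 2.75e-06). In vehicle cells it went from 18.3, 21.9 and 25.6 RPKM to 219, 232 and 216 RPKM (log2 change 3.30, SE 0.079, adjusted p = 4.2e-18). The acute and chronic libraries of each experiment were well apart, but OT-I acute and polyclonal acute libraries overlapped at the same level. The OT-I rise was smaller than the polyclonal one by 1.31 on the log2 scale (difference -1.31, SE 0.112, adjusted p = 4.17e-09), and the vehicle rise was larger than the polyclonal one by 1.40 (SE 0.112, adjusted p = 1.9e-09).

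Ctla4 moved in opposite directions. Polyclonal cells held 89.4, 91.2 and 92.6 RPKM after acute and 273, 299 and 284 RPKM after chronic culture (log2 change 1.64, SE 0.049, adjusted p = 1.06e-16). OT-I cells held 134, 134 and 126 RPKM after acute and 64.2, 62.9 and 64.1 RPKM after chronic culture (log2 change -1.03, SE 0.049, adjusted p = 7.59e-13), so that OT-I acute libraries were 2.06-fold above the chronic ones. In OT-I acute cells Ctla4 made up 49.2% of the summed RPKM of the 7 receptors, and in OT-I chronic cells 16.5%. Vehicle cells went from 41.7, 44.8 and 48.8 RPKM to 171, 172 and 166 RPKM (log2 change 1.89, SE 0.049, adjusted p = 1.29e-17). The difference between the OT-I and polyclonal effects was -2.67 (SE 0.069, adjusted p = 6.76e-17). The vehicle effect exceeded the polyclonal one by 0.25 (SE 0.069, adjusted p = 0.0041) on RPKM as deposited, but was lower by 0.75 with libraries rescaled to common Cd3 RNA (difference -0.75, adjusted p = 7e-07).

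Havcr2, the TIM-3 gene, was already high in polyclonal acute libraries, at 73.0, 66.1 and 73.0 RPKM, and stood at 84.4, 89.0 and 85.7 RPKM in polyclonal chronic ones (log2 change 0.29, SE 0.046, adjusted p = 1.57e-05). This was the smallest rise of the 7 in that experiment, a ratio of 1.22 between means. OT-I acute libraries held 18.3, 17.2 and 17.8 RPKM and OT-I chronic libraries 77.6, 74.7 and 71.9 RPKM (log2 change 2.01, SE 0.046, adjusted p = 8.63e-18), the largest rise of the 7 in OT-I cells. Vehicle acute libraries held 25.6, 23.9 and 26.1 RPKM and vehicle chronic libraries 199, 203 and 204 RPKM (log2 change 2.96, SE 0.046, adjusted p = 3.79e-21). The OT-I rise exceeded the polyclonal one by 1.72 (SE 0.065, adjusted p = 1.49e-14). It was below the vehicle rise by 0.95 (difference -0.95, SE 0.065, adjusted p = 1.59e-10), a difference not called with common Cd3 RNA (-0.05, adjusted p = 0.688). OT-I chronic and polyclonal acute libraries overlapped in Havcr2 RNA. In OT-I cells all 3 NK markers were called higher beside Havcr2, and their sum went from 5.15 to 8.71 RPKM in acute up to 27.6 to 33.8 RPKM in chronic libraries. Ncr1 was at 0.893 and 5.19, Klrb1c at 1.47 and 6.15 and Tyrobp at 4.54 and 20.3 RPKM. Of 6 myeloid markers 3 were called higher there and none lower, with sums of 7.47 to 12.7 and 24.4 to 26.7 RPKM, most of the latter from Mpeg1 (1.96 and 15.6 RPKM). Adgre1 was at 0.400 and 0.116 RPKM. The part of these cells in the OT-I rise was not tested.

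Cd244, the 2B4 gene, fell in polyclonal cells from 21.2, 21.1 and 21.5 RPKM to 8.39, 10.2 and 8.94 RPKM after chronic culture (log2 change -1.14, SE 0.057, adjusted p = 4.28e-13). It rose in OT-I cells from 4.61, 4.25 and 4.18 RPKM to 11.6, 11.6 and 11.2 RPKM after chronic culture (log2 change 1.22, SE 0.057, adjusted p = 5.74e-13). In vehicle cells it rose from 6.17, 6.14 and 6.48 RPKM to 48.9, 51.3 and 48.8 RPKM with repeated stimulation (log2 change 2.80, SE 0.057, adjusted p = 2.2e-19). No acute library overlapped a chronic library of its own experiment, and the direction in polyclonal cells was opposite to both others. The OT-I effect exceeded the polyclonal one by 2.36 (SE 0.080, adjusted p = 3.21e-15) and the vehicle effect exceeded it by 3.94 (SE 0.080, adjusted p = 1.25e-18). The NK marker sum moved in the direction of Cd244 in each experiment, but the single markers did not all do so. The sum went from 25 to 30.7 RPKM down to 9.62 to 11.9 in polyclonal cells. There Klrb1c was called lower, Tyrobp was called higher (5.19 to 9.80 RPKM) and Ncr1 was not called. In OT-I cells the sum went up as given for Havcr2. In vehicle cells it went from 10.8 to 11.8 RPKM up to 42.3 to 48.9. Of the 3 NK markers 1 was called higher there, and Tyrobp went from 2.56 to 34.7 RPKM. The part of NK cells in the Cd244 values was not tested.

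Cd160 RNA was nearly absent from polyclonal chronic cells. It was at 23.3, 25.7 and 26.3 RPKM in polyclonal acute libraries and at 0.738, 0.929 and 0.650 RPKM in polyclonal chronic ones, from 21, 19 and 26 reads (log2 change -3.88, SE 0.074, adjusted p = 1.31e-19). The ratio of the acute to the chronic mean was 32.5, the largest change of any of the 7 receptors in that experiment. In the same libraries Cd8a and Cd8b1 (266.5 to 23.05 RPKM) were lower. Of the 3 NK markers tested, Klrb1c was called lower (21.3 to 0.960 RPKM), Tyrobp was called higher (5.19 to 9.80 RPKM) and the defining marker Ncr1 was not called (1.01 and 0.360 RPKM). The part of these cell types in the Cd160 value was not tested. OT-I cells held 5.79, 5.81 and 5.42 RPKM after acute and 4.43, 3.38 and 4.27 RPKM after chronic culture (log2 change -0.42, SE 0.074, adjusted p = 7.38e-05). Vehicle cells held 39.4, 43.2 and 39.2 RPKM after acute and 37.1, 37.4 and 37.0 RPKM after chronic culture. The vehicle chronic libraries lay just below the acute ones without overlap, and the change was not called (log2 change -0.12, SE 0.074, adjusted p = 0.162). It was called lower with only the groups compared in the fit (-0.12, adjusted p = 0.033) and with limma's voom on recovered reads (-0.13, adjusted p = 0.0371). The polyclonal effect lay below the OT-I effect by 3.47 (SE 0.105, adjusted p = 6.67e-16) and below the vehicle effect by 3.76 (SE 0.105, adjusted p = 1.03e-16).

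**Figure D2:**
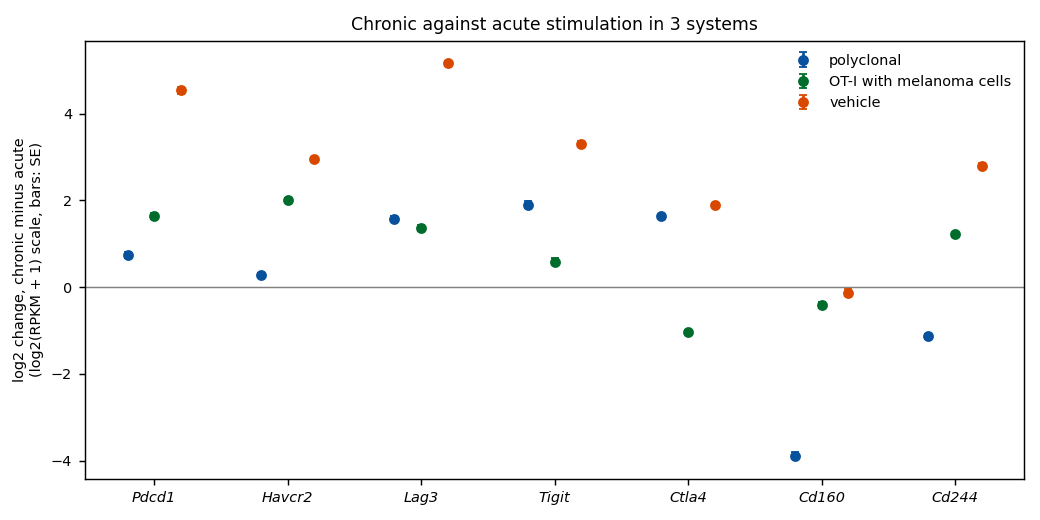
Log2 change of chronic against acute cells (log2(RPKM + 1) scale, vertical axis) for each receptor in the polyclonal, OT-I and vehicle experiments, with bars for the SE from limma. The vehicle points of Lag3 (5.16) and Pdcd1 (4.53) stand highest, Ctla4 is below 0 in OT-I cells, and Cd160 and Cd244 are below 0 in polyclonal cells.

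By rise on the log2(RPKM + 1) scale, Tigit, Ctla4 and Lag3 came first in polyclonal cells, Havcr2, Pdcd1 and Lag3 in OT-I cells, and Lag3, Pdcd1 and Tigit in vehicle cells. By ratio of means Cd244 (2.64) stood just above Lag3 (2.61) in OT-I cells. In tests of the differences, 6 of 7 receptors were called between the OT-I and polyclonal effects (4 higher and 2 lower in OT-I, beside 55.8% of all genes called, 26.6% higher and 29.2% lower). All 7 were called higher in the vehicle than in the polyclonal effect (52.4% of all genes called, 25.1% higher and 27.3% lower), with the exception for Ctla4 given above. All 7 were called lower in the OT-I than in the vehicle effect (58.5% of all genes called, 27.4% higher and 31.1% lower), Havcr2 not with common Cd3 RNA, with Pdcd1 lower by 2.89 (difference -2.89, SE 0.107, adjusted p = 1.3e-14) and Lag3 by 3.79 (difference -3.79, SE 0.090, adjusted p = 2.57e-17). For Cd160 this last difference was -0.29 (adjusted p = 0.0218), lost with a common median (-0.22, adjusted p = 0.0657) or without OT-I chronic library 2 (-0.20, adjusted p = 0.0796), vehicle acute library 1 (-0.27, adjusted p = 0.0505) or vehicle acute library 3 (-0.27, adjusted p = 0.0518), and reversed with common Cd3 RNA (0.60, adjusted p = 0.000947). The OT-I experiment differs from the others in cells and stimulus, and between the polyclonal and vehicle experiments the labels state no difference but the vehicle. In each case the experiment cannot be told apart from a batch. The comparisons of effects share each experiment's libraries.

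Over all 7 groups, most neighbours in the order of a receptor's levels did not overlap. This was not counted for all genes, of which 59.6% to 77.9% did not overlap in the comparisons of 2 groups made here. The exceptions were Havcr2 as given above, Tigit in OT-I acute and polyclonal acute libraries, Lag3 and Tigit in polyclonal chronic and NAC chronic libraries, and Cd244 in OT-I chronic and NAC chronic libraries. Vehicle chronic libraries were the highest of the 7 groups for Pdcd1, Havcr2, Lag3, Tigit and Cd244, polyclonal chronic libraries for Ctla4 and vehicle acute libraries for Cd160. Vehicle acute libraries were the lowest for Pdcd1, Lag3, Tigit and Ctla4, OT-I acute libraries for Havcr2 and Cd244, and polyclonal chronic libraries for Cd160. These orders are on RPKM as deposited and were not repeated on the other scales. The mean log2 level of Cd3e, Cd3d and Cd3g was 8.65 to 8.67 in vehicle chronic and 7.96 to 8.14 in polyclonal chronic libraries. It was 7.52 to 7.87 in OT-I acute and 8.14 to 8.21 in vehicle acute libraries. Close orders, such as Lag3 and Tigit in vehicle chronic and polyclonal chronic libraries, may therefore change with common Cd3 RNA.

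The acute levels differed too. The summed RPKM of the 7 receptors was 156 in vehicle acute, 267 in OT-I acute and 395 in polyclonal acute libraries, and 1245 in vehicle chronic, 945 in polyclonal chronic and 385 in OT-I chronic libraries. Ctla4 was the most abundant of the 7 in vehicle acute cells, at 45.1 ± 3.53 RPKM (SD, n = 3), followed by Cd160 at 40.6 ± 2.25 RPKM. Pdcd1, Lag3 and Cd244 were each under 10 RPKM in vehicle acute cells. Sums are per length and add genes of different function.

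NAC was compared with vehicle in chronic cells, to ask whether an antioxidant given during repeated stimulation changed receptor RNA. All 7 receptors were called lower with NAC (7 of 7, beside 61.1% of all genes called, 38.5% higher and 22.6% lower), with a median log2 change of -0.33 against 0.08 over all genes. The sizes were unequal. Havcr2 fell 7.05-fold and Cd244 4.46-fold, Pdcd1 fell 1.63-fold, and Lag3, Cd160, Ctla4 and Tigit fell by ratios of 1.14 to 1.26. NAC chronic cells were compared with vehicle acute cells as well, and there 6 receptors were higher, Havcr2 and Cd244 not on every scale, and Cd160 was lower (66.3% of all genes called, 36.3% higher and 29.9% lower). In that comparison 54.8% of the called genes were higher on RPKM as deposited, 42.1% with a common median and 8.4% with common Cd3 RNA. The 3 NAC libraries and the 3 vehicle acute libraries did not overlap for any of the 7, as for 77.9% of all genes. These 2 comparisons and that of vehicle chronic with vehicle acute cells share libraries.

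Havcr2 was at 199, 203 and 204 RPKM in vehicle chronic libraries and at 29.2, 28.5 and 28.3 RPKM in NAC chronic libraries (log2 change -2.78, SE 0.046, adjusted p = 1.06e-19). The NAC libraries lay close to those of vehicle acute cells, which held 25.6, 23.9 and 26.1 RPKM. The remaining difference from vehicle acute was 0.18 on RPKM as deposited (SE 0.046, adjusted p = 0.00177), 0.04 with a common median (adjusted p = 0.576) and -0.60 with common Cd3 RNA (adjusted p = 2.18e-07). Havcr2 thus went from 16.2% of the summed receptor RPKM in vehicle chronic to 3.48% in NAC chronic cells.

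Cd244 went from 48.9, 51.3 and 48.8 RPKM with vehicle to 10.8, 11.1 and 11.5 RPKM with NAC (log2 change -2.06, SE 0.057, adjusted p = 9.47e-17). The NAC libraries were all above those of vehicle acute cells, at 6.17, 6.14 and 6.48 RPKM (log2 change 0.74, SE 0.057, adjusted p = 4.32e-10), and this difference was not called with common Cd3 RNA (-0.04, adjusted p = 0.711). The NK marker sum moved with Cd244 and Havcr2 across these groups, at 10.8 to 11.8 RPKM in vehicle acute, 42.3 to 48.9 in vehicle chronic and 14.0 to 16.8 in NAC chronic libraries. Of the 3 NK markers, Tyrobp, an adaptor gene that myeloid and activated T cells use too, was at 2.56, 34.7 and 7.71 RPKM and made up most of the sum in vehicle chronic libraries, Klrb1c was at 8.68, 10.5 and 7.25 RPKM, and the defining marker Ncr1 was at 0.0290, 0.300 and 0.272 RPKM. Their part in the receptor values was not tested.

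Pdcd1 had 207, 214 and 213 RPKM with vehicle and 127, 127 and 136 RPKM with NAC (log2 change -0.70, SE 0.076, adjusted p = 1.12e-07). The groups did not overlap, and Pdcd1 stayed 15.9-fold above vehicle acute cells (log2 change 3.83, SE 0.076, adjusted p = 2.09e-19). It was the third most abundant of the 7 in vehicle chronic and the fourth in NAC chronic cells.

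Lag3, Cd160, Ctla4 and Tigit had the small falls. Lag3 went from 349.6, 358 and 352 RPKM to 286, 288 and 268 RPKM (log2 change -0.33, SE 0.064, adjusted p = 0.000155) and stayed 31.4-fold above vehicle acute cells (log2 change 4.83, SE 0.064, adjusted p = 6.19e-22). Cd160 went from 37.1, 37.4 and 37.0 RPKM to 30.2, 30.3 and 28.9 RPKM (log2 change -0.31, SE 0.074, adjusted p = 0.0012), which also lay below vehicle acute cells (log2 change -0.43, SE 0.074, adjusted p = 3.12e-05). Neither pair of groups overlapped. Cd160 was the only one of the 7 whose NAC libraries lay below both vehicle groups. Ctla4 went from 171, 172 and 166 RPKM to 147, 148 and 148 RPKM (log2 change -0.20, SE 0.049, adjusted p = 0.0015) and stayed 3.27-fold above vehicle acute cells (adjusted p = 7e-17). Tigit went from 219, 232 and 216 RPKM to 199.9, 190.2 and 195 RPKM (log2 change -0.19, SE 0.079, adjusted p = 0.0457) and stayed 8.90-fold above vehicle acute cells (adjusted p = 1.15e-17). The Tigit call was the weakest of the 7: its libraries did not overlap, as those of 75.8% of all genes did not, but it was lost with a pseudocount of 0.1 (adjusted p = 0.0507) and without any 1 of the 6 libraries (log2 changes of -0.21 to -0.16, adjusted p of 0.0558 to 0.149).

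**Figure D3:**
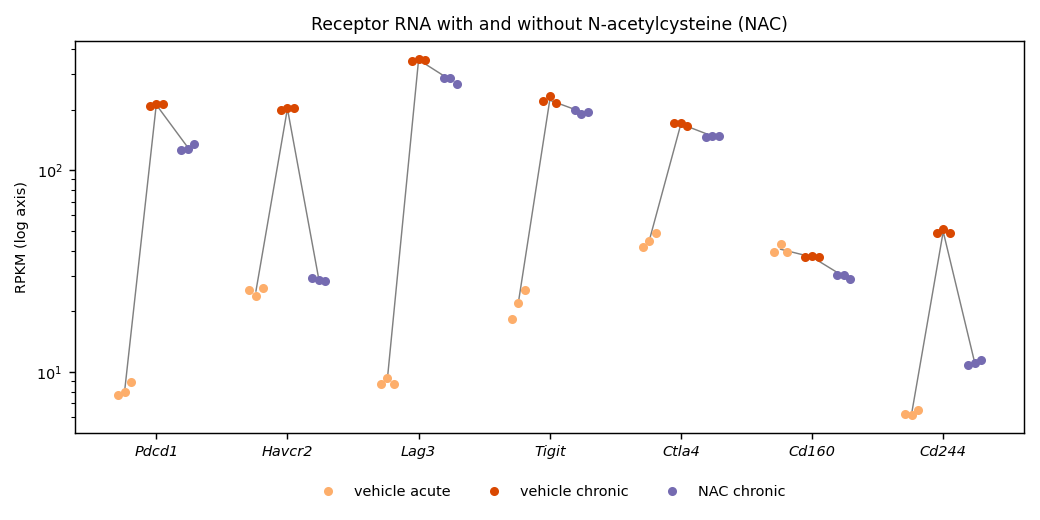
RPKM on a log axis of the 7 receptors in vehicle acute, vehicle chronic and NAC chronic libraries, as points for 3 libraries per group, with lines joining group means. Havcr2 in NAC chronic libraries (28.3 to 29.2 RPKM) comes close to vehicle acute libraries (23.9 to 26.1 RPKM), while Lag3 and Tigit stay near vehicle chronic libraries.

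Whether the receptors differed from each other in their response to NAC was tested pair by pair, which needs no scaling between libraries. For each of the 21 pairs, the difference in log2(RPKM + 1) within each library was compared between 3 vehicle and 3 NAC libraries by a two-sided exact permutation test, which cannot go below p = 0.1 here. In 19 of 21 pairs the libraries of the groups did not overlap (exact p = 0.1, adjusted over the pairs 0.111), so no pair could pass 0.05. The share over pairs of all genes was not counted, and 75.8% of single genes did not overlap between these groups. The pairs share genes and libraries and are not separate results. Havcr2 RNA and Pdcd1 RNA were nearly equal with vehicle, where Pdcd1 was higher by 0.06 ± 0.011 on the log2 scale (SD, n = 3), and with NAC Pdcd1 was higher by 2.14 ± 0.074. Relative to Havcr2, Cd244 fell less by 0.71, Pdcd1 by 2.08, Lag3 by 2.45, Cd160 by 2.47, Ctla4 by 2.58 and Tigit by 2.59. Lag3 and Cd160 differed by 0.02 in their response (change of the difference -0.02, exact p = 0.3) and Tigit and Ctla4 by 0.01 (exact p = 0.8), both with overlapping libraries. A p that misses the threshold does not show that these responded alike. The order of the 2 smallest, Tigit and Ctla4, turned without NAC chronic library 1 (-0.01) or vehicle chronic library 1 (-0.004).

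The size of the falls depended on the scaling and their direction did not. With RPKM as deposited 63.0% of the called genes were higher with NAC (4862 higher and 2854 lower), with a common median 44.0% (3310 and 4214) and with common Cd3 RNA 27.2% (1817 and 4864), and the median of all genes moved from 0.08 to -0.08 and to -0.21. All 7 receptors were lower on each of the 3 scales and called on each. Over all 14 alternatives the log2 change ranged from -3.07 to -2.77 for Havcr2, -2.35 to -2.04 for Cd244, -0.99 to -0.68 for Pdcd1, -0.62 to -0.30 for Lag3, -0.60 to -0.29 for Cd160, -0.49 to -0.19 for Ctla4 and -0.48 to -0.16 for Tigit.

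**Figure D4:**
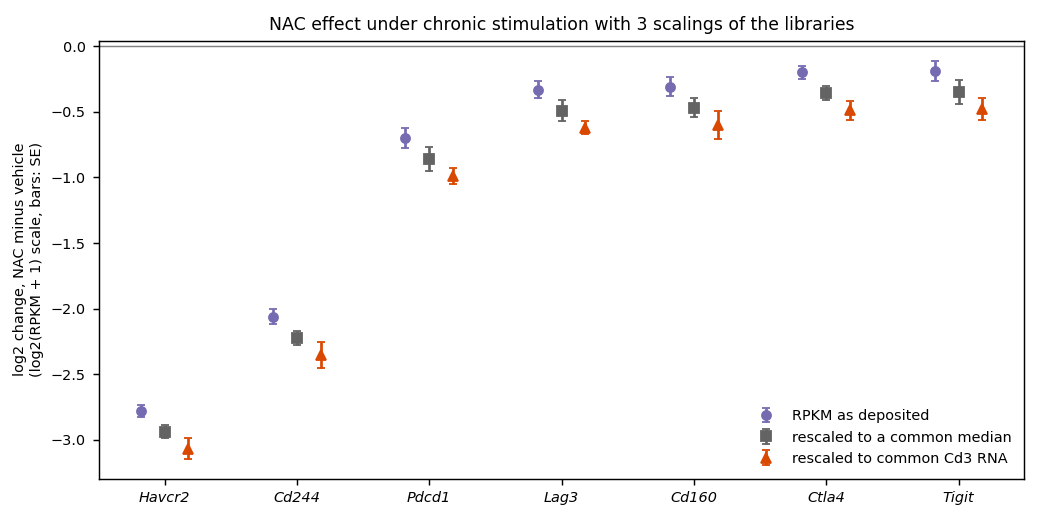
Log2 change of each receptor, NAC minus vehicle in chronic cells (log2(RPKM + 1) scale, vertical axis, bars for the SE), on RPKM as deposited, with libraries rescaled to a common median, and with libraries rescaled to common Cd3 RNA. The 3 points of each receptor lie below 0, from -3.07 for Havcr2 to -0.19 for Tigit.

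Other cell type markers moved with NAC as well. The CD4 T cell marker sum was 18.7 to 21.8 RPKM in vehicle chronic and 71.9 to 73.6 RPKM in NAC chronic libraries, with Cd4 at 2.39 and 47.9 RPKM, and the myeloid sum was 24.7 to 27.9 and 52.3 to 55.8 RPKM. Of 6 myeloid markers tested, 3 were called higher with NAC, Itgax (7.52 to 26.4 RPKM), Itgam (1.79 to 4.93 RPKM) and Cd68 (16.0 to 22.5 RPKM). Cd14 was called lower (1.06 to 0.616 RPKM), and Mpeg1 (0.0183 and 0.0514 RPKM) and the macrophage marker Adgre1 (0 and 0.0211 RPKM) were near 0. Of 5 CD8 T cell markers tested, 2 were called higher with NAC and none lower. Cd8b1 was at 88.8 and 184 RPKM and Cd3e at 227 and 372 RPKM. Cd8a was at 145 and 138 RPKM and was not called (limma, adjusted p = 0.115). Of 4 regulatory T cell markers tested, 3 were called higher with NAC and 1 lower. Foxp3, the defining factor of regulatory T cells, which carry much CTLA-4 and TIGIT, was at 0.663 and 3.12 RPKM. Ikzf2 was at 35.22 and 45.65 RPKM and Ikzf4 at 4.15 and 9.55 RPKM. The regulatory T cell marker sum went from 380 to 389 RPKM down to 168 to 174 RPKM, most of it Il2ra (346 and 112 RPKM). The part of these cells in the falls of the receptors was not tested.

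The other genes of the receptor pathways were followed in 6 lists, counted on RPKM as deposited beside the shares of all genes given above and their medians of -0.08 in polyclonal, -0.12 in OT-I and -0.03 in vehicle cells and 0.08 with NAC. With a common median the transcription factors under NAC, evenly split on RPKM as deposited, had 7 higher and 10 lower of 21. With common Cd3 RNA more list genes were called higher in polyclonal and OT-I cells and fewer in vehicle cells and under NAC, and the majority turned in several lists. It turned to higher in polyclonal cells for the activating receptors (5 higher and 4 lower), the signalling partners (7 and 5) and the genes that control receptor protein (6 and 2), and in OT-I cells for the activating receptors (3 and 2). It turned to lower in vehicle cells for the genes that control receptor protein (2 and 8) and the other inhibitory receptors (4 and 7), and under NAC for the signalling partners (4 and 6). Lists split evenly on RPKM as deposited had a lower majority there, with 3 higher and 7 lower for the activating receptors in vehicle cells and 5 and 10 for the transcription factors under NAC. The transcription factors in the 3 chronic comparisons and the activating receptors under NAC (8 higher and 3 lower of 12) kept their majority direction. Of the genes named with a change below, all kept their direction on both scales, and Fut8 in OT-I cells lost its call with common Cd3 RNA (-0.06, adjusted p = 0.586).

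The ligands of the receptors were followed as a list of 14 genes, of which 13 were tested (Fgl1 is not analysed here). In OT-I cultures their RNA came from T cells and tumour cells together, and the part of each was not tested. Nectin2 was at 14.25 RPKM in OT-I acute and 0.0296 RPKM in vehicle acute libraries. In polyclonal cells 6 rose and 3 fell, in OT-I cultures 7 rose and 3 fell, and in vehicle cells 4 rose and 6 fell, with medians of 0.22, 0.18 and -0.20. The PD-1 ligand gene Cd274 rose in each experiment, from 21.1 to 76.6 RPKM in polyclonal, 56.7 to 123 RPKM in OT-I and 9.76 to 26.6 RPKM in vehicle cells. The second PD-1 ligand gene, Pdcd1lg2, rose from 5.24 to 20.1 RPKM in vehicle cells (log2 change 1.76, adjusted p = 1.8e-14). With NAC 8 of 13 rose and 4 fell, with a median of 0.47. Genes of galectin ligands moved apart there. Lgals9, whose product binds TIM-3, rose from 34.1 ± 2.32 to 102 ± 2.21 RPKM (adjusted p = 4.52e-15). Lgals3, a LAG-3 ligand, fell from 1160 ± 4.48 to 366 ± 10.0 RPKM (adjusted p = 4.61e-13). Ceacam1, another proposed TIM-3 ligand, rose from 0.698 to 4.74 RPKM (adjusted p = 1.69e-05).

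Activating receptors that compete for the same ligands or belong to the same families formed a list of 12. In it 5 rose and 7 fell in polyclonal, 2 rose and 10 fell in OT-I, and 5 rose and 5 fell in vehicle cells. Cd226, which shares its ligand with TIGIT, fell in each experiment, from 41.6 to 2.66 RPKM in polyclonal, 13.4 to 4.86 RPKM in OT-I and 58.5 to 11.2 RPKM in vehicle cells. With NAC 9 of 12 rose and 3 fell (median 0.59), and Cd226 rose to 35.7 ± 1.38 RPKM (log2 change 1.58, SE 0.111, adjusted p = 1.61e-10). Slamf6, a relative of 2B4 and a mark of progenitor-like exhausted cells, was at 17.3 RPKM in vehicle acute, 0.433 in vehicle chronic and 11.9 RPKM in NAC chronic cells (NAC against vehicle log2 change 3.17, adjusted p = 1.1e-15). Cd4, which shares its ligand with LAG-3, was among the highest rises of the list and is a cell type marker too.

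Genes for proteins that carry the receptors' signals formed a list of 14. In it 4 rose and 7 fell in polyclonal, 4 rose and 3 fell in OT-I, and 3 rose and 7 fell in vehicle cells. Ptpn6, the gene of the phosphatase SHP-1, rose from 80.8 to 148 RPKM in vehicle chronic cells (log2 change 0.86, adjusted p = 1.99e-12) and from 38.6 to 72.0 RPKM in OT-I chronic cells. Sh2d1a, which encodes the adaptor SAP that binds the tail of 2B4, fell from 92.5 to 27.0 RPKM in vehicle chronic cells (log2 change -1.74, adjusted p = 2.54e-12) and was at 87.7 RPKM with NAC (log2 change 1.67 against vehicle, adjusted p = 7.55e-12). With NAC 8 of 14 rose and 4 fell, among them Csk, a kinase that holds Lck inactive (53.0 to 105 RPKM).

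Genes that control the receptor proteins by shedding, trafficking, ubiquitin or glycans numbered 12. In polyclonal cells 2 rose and 7 fell, in OT-I cells 5 rose and 4 fell, in vehicle cells 4 rose and 3 fell, and with NAC 3 rose and 6 fell. Cblb, a ubiquitin ligase that restrains T cell activation, rose from 28.2 to 87.1 RPKM in vehicle chronic cells and was at 137 RPKM with NAC. Fut8, the core fucosyltransferase whose loss lowers surface PD-1, fell in each experiment, from 26.6 to 7.56 RPKM in polyclonal, 19.5 to 13.8 RPKM in OT-I and 27.33 to 10.97 RPKM in vehicle cells.

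Transcription factors known to act at the receptor genes rose more often than they fell in each chronic comparison, with 12 of 21 higher and 6 lower in polyclonal, 13 and 6 in OT-I, and 15 and 4 in vehicle cells (medians 0.36, 0.42 and 0.89). In vehicle cells the NR4A genes, nuclear receptors induced by TCR signals, led the list. Nr4a1 went from 1.15 to 40.2 RPKM (log2 change 4.26, adjusted p = 6.49e-21), Nr4a2 from 1.31 to 62.4 RPKM and Nr4a3 from 1.30 to 34.7 RPKM. Polyclonal cells had Nr4a1 at 7.86 and 17.3 RPKM, and Nr4a3 fell in OT-I cells from 58.6 to 25.1 RPKM (adjusted p = 1.4e-11). With NAC 9 of 21 rose and 9 fell (median 0.00). Nr4a1 rose further to 108 RPKM (log2 change 1.41, adjusted p = 5.73e-13), and Tox, which encodes a factor of exhausted cells, stood at 0.783 RPKM with vehicle and rose to 19.1 RPKM (log2 change 3.50, SE 0.141, adjusted p = 2.82e-14). Batf, a partner in AP-1 dimers, was at 83.6 ± 3.31 RPKM with vehicle and fell to 29.9 ± 1.32 RPKM (log2 change -1.46, SE 0.086, adjusted p = 1.14e-11). Junb, chosen after its values were seen because it encodes another AP-1 subunit, was at 352 RPKM with vehicle, 180.2 RPKM with NAC and 81.6 RPKM in vehicle acute cells. In polyclonal cells, where Havcr2 rose and Cd244 fell, Batf went from 52.7 to 191 RPKM and Junb from 71.6 to 286 RPKM. In OT-I cells, where both receptors rose, Batf was at 24.9 and 26.0 RPKM and Junb at 107.9 and 189.9 RPKM. The other AP-1 genes of the list, printed outside the naming rule, did not all move with Batf and Junb under NAC. Fosl2 was at 37.4 RPKM with vehicle and 22.7 RPKM with NAC. Fos was at 4.52 RPKM with vehicle and 4.51 RPKM with NAC, and Jun at 26.7 and 25.1 RPKM, and neither was called (limma, adjusted p of 1 and 0.396). Jun was called lower with a common median (-0.24, adjusted p = 0.0283) and with common Cd3 RNA (-0.38, adjusted p = 7.2e-05). Factors outside AP-1 also rose in vehicle chronic cells and were lower with NAC, among them 2 printed outside the naming rule. Prdm1 was at 5.44 RPKM in vehicle acute, 13.9 in vehicle chronic and 5.03 in NAC chronic cells, and Tbx21 at 33.7, 73.5 and 36.6 RPKM. The part of any of these factors in the receptor values was not tested.

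Other inhibitory receptors were split. Of 15 listed, 14 were tested (Pilra is not analysed here), and 6 rose and 5 fell in polyclonal, 6 and 5 in OT-I, and 7 and 3 in vehicle cells. With NAC 6 rose and 7 fell (median -0.18). Those with the largest falls under NAC were Lilrb4a, an inhibitory receptor gene of myeloid and activated T cells (232 to 44.5 RPKM, log2 change -2.35, adjusted p = 2.18e-15), Klrc1, which encodes NKG2A (129.8 to 36.2 RPKM, log2 change -1.82, adjusted p = 7.29e-14), and Klrg1 (23.5 to 6.93 RPKM, log2 change -1.63, adjusted p = 6.4e-07). Each of these had risen in vehicle chronic cells, Lilrb4a from 60.03, Klrc1 from 50.2 and Klrg1 from 2.48 RPKM. Cd200, a ligand gene kept in this list, rose in polyclonal cells from 0.922 to 69.3 RPKM and was higher in NAC chronic (24.7 RPKM) than in vehicle chronic cells (11.5 RPKM).

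The receptors were also described by how alike their levels ran over the 21 libraries, which fall into 7 groups and 3 experiments, so the points are not independent and no p is given. Lag3 and Tigit ran most alike (Pearson r of log2(RPKM + 1) 0.960, n = 21), followed by Lag3 and Pdcd1 (0.914), Tigit and Pdcd1 (0.911), and Havcr2 and Cd244 (0.862). Cd160 ran unlike the rest, with r of -0.423 to 0.404 against the other 6. Among 11981 genes compared, without predicted genes, those most like each receptor were named by rule. For Lag3 they were Srgap3 (0.984), Lyn (0.981) and Egr3 (0.969), for Tigit Ptpn5 (0.979), Il12rb2 and Spin4 (both 0.962), and for Pdcd1 Filip1 (0.970), Serpinb9b (0.968) and Rgs8 (0.963).

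Genes most like Havcr2 were Bhlhe40 (r 0.943), Car2 (0.940) and Scin (0.932). The r was taken over libraries that include NAC, so their levels there are part of the choice. Bhlhe40, which encodes a transcription factor, was at 93.1 RPKM in vehicle acute, 293.8 in vehicle chronic and 139.3 in NAC chronic cells. Car2, a carbonic anhydrase gene, was at 1.41 RPKM in vehicle acute, 36.9 in vehicle chronic and 3.56 in NAC chronic cells. Scin, which encodes the actin-severing protein scinderin, was at 0.973, 12.0 and 1.35 RPKM in the same groups. For Cd244 they were Cd55 (0.945), Klra2 (0.918) and Arhgef7 (0.902), and Cd55, an inhibitor of complement, was at 4.72, 15.8 and 6.12 RPKM. For Cd160 they were Lfng (0.983), Ctla2b (0.973) and Sidt1 (0.970), and for Ctla4 Plekhb2 (0.964) and Trim8 (0.928). Lfng, a glycosyltransferase that modifies Notch, was at 106 RPKM in polyclonal acute and 31.8 RPKM in polyclonal chronic cells.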

How the data were processed

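Poly(A) RNA was extracted with Trizol and made into libraries with a NEBNext Ultra kit, per the labels' protocols. Build mm9 and the tools HTSeq, edgeR and bcl2fastq 2.17 are listed in the submitters' processing notes. Aligner, annotation and normalization are not stated there. The RPKM values, on a linear scale, were deposited by the authors in a table whose 21 columns were matched to libraries by name. Whole reads were recovered from 100% of its genes within 0.001 reads, which gave the depths (5347355 to 15147347 reads per polyclonal, 13121180 to 25218890 per OT-I and 14421378 to 17539278 per vehicle or NAC library).

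Values were transformed to log2(RPKM + 1), 12630 of 13202 genes reached an RPKM of 1 in 3 libraries and were tested, and all libraries entered 1 fit in limma 3.58.1 (R 4.3.3) with a mean per group, an empirical Bayes trend (14 residual degrees of freedom). P-values are two-sided, with Benjamini-Hochberg adjustment over all genes tested. The fit and the recovery of reads were also run on simulated data, whose results are not printed here and are not used as support. The data simulated for the fit had the same spread in all groups, unlike the libraries here. Receptor pairs were compared by exact permutation tests in SciPy 1.17.1. Libraries of a group differed by more than sampling noise (chi-square of 1.52 to 54.6 per gene with 20 or more reads), and each counted once. The values were 1.52 to 1.8 among NAC chronic and 1.74 to 2.13 among vehicle chronic libraries. They cannot tell separate cultures from separate preparations of 1 culture.

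The members and gene lists were chosen with earlier results of these data known. Named beside the receptors were up to 3 genes per list and comparison with the largest absolute log2 change among called genes whose higher group had a mean RPKM of at least 1 and whose libraries did not overlap, the same genes' values in the other groups, and the 3 genes of highest r per receptor. Not every gene taken by the rule is printed. Same-numbered libraries deviated together in the polyclonal experiment (r of 0.446, 0.629 and 0.168 across genes), where the labels state no pairing. Acute 1 with chronic 3 (0.569) and acute 3 with chronic 1 (0.134) did so too, so the numbers do not single out pairs. Acute 2 and chronic 2 had the fewest reads of their groups (5347355 and 7738101) and raised low genes (lower quartiles of 2.92 and 2.74 RPKM). Whether depth or pairing made libraries deviate together was not tested. In the other experiments same-numbered libraries did not deviate together (r of -0.167 to 0.079).

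The alternatives tried were a filter of RPKM 5, no filter, a pseudocount of 0.1, a common median, common Cd3 RNA, only the compared groups, the replicate block (8 residual degrees of freedom), limma's voom on the recovered reads, which called 5017 genes higher and 2936 lower with NAC, and leaving out each library. Leaving out 3 libraries with raised low genes (polyclonal acute 2, polyclonal chronic 2 and OT-I acute 3) was added after the data were seen. Promoter windows were read from a RefSeq table for GRCm38.p6, which held 6 of the 7 receptors (Cd244 as Cd244a). No coordinates on mm9 are given.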

Additional observations from a re-analysis of the deposited data

Results flagged for a closer look

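A difference between experiments in the effect of chronic stimulation was called by limma for 20 of the 21 tests of a receptor between a pair of experiments, beside 55.8% (OT-I and polyclonal), 52.4% (vehicle and polyclonal) and 58.5% (OT-I and vehicle) of all genes. Values are differences of log2 changes. The OT-I effect minus the polyclonal effect was 0.90 for Pdcd1, 1.72 for Havcr2, 2.36 for Cd244, 3.47 for Cd160, -1.31 for Tigit and -2.67 for Ctla4. The vehicle effect minus the polyclonal effect was 3.79 for Pdcd1, 2.67 for Havcr2, 3.58 for Lag3, 1.40 for Tigit, 0.25 for Ctla4, 3.76 for Cd160 and 3.94 for Cd244. The OT-I effect minus the vehicle effect was -2.89 for Pdcd1, -0.95 for Havcr2, -3.79 for Lag3, -2.71 for Tigit, -2.92 for Ctla4, -0.29 for Cd160 and -1.58 for Cd244. For Ctla4 and Cd244 the experiments differed in direction, since every OT-I chronic library was below every OT-I acute library for Ctla4 and every polyclonal chronic library was below every polyclonal acute library for Cd244. Groups of 3 libraries are too small for a test of single libraries that stand apart.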

How the results depend on the processing

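Of the values of single receptors and receptor pairs under all alternatives, 1061 kept their direction and side of the threshold, 11 gained a call, 14 lost one and 6 changed direction. For receptor pairs only the direction could change, since their exact p cannot go below 0.1, so the 1061 include pairs whose side was fixed in advance. The changes of direction were Havcr2 (-0.60) and Cd244 (-0.04) in NAC chronic against vehicle acute cells, Ctla4 in the vehicle minus polyclonal effect (-0.75) and Cd160 in the OT-I minus vehicle effect (0.60), all with common Cd3 RNA, and Tigit minus Ctla4 under NAC without NAC chronic library 1 (-0.012) or vehicle chronic library 1 (-0.004), where leaving out 1 library gave -0.012 to 0.031. Counts moved by over 1.5 times with common Cd3 RNA, where all genes called higher and lower numbered 7640 and 1137 in polyclonal, 6244 and 871 in OT-I, 976 and 8524 in vehicle, 1817 and 4864 in NAC against vehicle chronic, 879 and 9585 in NAC against vehicle acute, 389 and 10351 in vehicle minus polyclonal and 9113 and 580 in OT-I minus vehicle, and 2014 were higher in OT-I minus polyclonal. Receptors called lower there numbered 1 in OT-I, 1 in vehicle (also 1 with only the groups compared and with voom), 2 in NAC against vehicle acute and 1 in vehicle minus polyclonal, and 1 was higher in OT-I minus vehicle. The cause was not tested. With the replicate block the Lag3 difference between OT-I and polyclonal cells was called (-0.21, adjusted p = 0.0427), and the block changed no other receptor call. Without the 3 libraries with raised low genes the same call changed (-0.35, adjusted p = 0.000577) and no other. Depth limited Cd160 in polyclonal chronic libraries most, at 19 to 26 reads.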
